A study of Rattus norvegicus with 4 samples.

Results

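The 9 genes studied here belong to cellular iron handling, measured as ribosome footprints of cultured rat heart cells, and all 9 had a row among the 31038 rows of the count tables. They were chosen by symbol for their roles: the ferritin subunits Fth1 and Ftl1, the transporters Tfrc, Slc11a2 and Slc40a1, the iron regulatory proteins Ireb2 and Aco1, and the turnover factors Ncoa4 and Fbxl5. Of the 4 libraries, 2 came from cells given a control siRNA (siNT) and 2 from cells in which eIF3m, a subunit of the initiation factor complex eIF3, was knocked down by siRNA (si3m). All cells were labelled NRVM, a common abbreviation of neonatal rat ventricular myocytes, although the labels' protocols give the source as embryonic heart muscle. All were grown in medium with fetal bovine serum, a source of transferrin-bound iron. Whether the 2 libraries of a group came from separate cultures is not given in the sources used here, so the p-values reflect the spread between libraries only, and that spread may be technical.

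Cells take up iron bound to transferrin through the transferrin receptor, move it out of the endosome, store the surplus in ferritin and export it through ferroportin. When iron is scarce, the iron regulatory proteins bind stem-loops called iron-responsive elements (IREs) in messenger RNAs. An IRE in the 5′ untranslated region, as in the ferritin and ferroportin messages, then blocks translation, whereas IREs in the 3′ untranslated region of the transferrin receptor message protect it from decay. In heart muscle, iron feeds heme and iron-sulfur enzymes of the mitochondria, and ferritin limits the free iron that drives oxidative damage.

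Total counts were 3924434 and 3835750 in siNT and 8687598 and 6726969 in si3m, so si3m was sequenced more deeply. Eif3m itself had 532 and 451 CPM (counts divided by a TMM-scaled library size) in siNT and 138 and 191 in si3m, a 3.01-fold fall (log2 fold change -1.59, SE 0.11, edgeR adjusted p = 3.41e-08). With robust quasi-likelihood its adjusted p was 0.0522 at the same fold change. Of 12 cardiomyocyte markers, 5 to 8 per library were at 6 counts or fewer, and Tnni3, Myl7 and Nppa were at 0 in every library. The 12 together made up 118 to 140.3 CPM of the library total. Only 4 could be tested, and 75.0% of them were called against 27.8% of all genes tested. Tnnt2 (log2 1.25) passed as higher, Ttn (-0.64) and Pln (-1.56) as lower, and Tnnc1 (0.26) did not pass. The 10 fibroblast markers summed to 7266 and 7337 CPM of the total in siNT and 11670.5 and 11994 in si3m. The 6 with enough counts to be tested passed as higher, against 14.0% of all genes tested. Among these 6, Dcn was tested only because of its si3m counts, with 0 and 0 counts in siNT and 24 and 20 in si3m. Pdgfra, Tcf21, Lum and Dpt had too few counts to be tested, and Tcf21 was at 0 in every library. The 6 smooth muscle markers summed to 3239 and 3218 CPM of the total in siNT and 3566 and 3572 in si3m. All 6 were tested and 33.3% were called, with Acta2 higher (log2 0.35) and Tagln lower (log2 -0.23). In such bulk samples, fewer cells of a type and less RNA per cell cannot be told apart. RNA levels were not analysed here, so values stand for the amount of footprints and not for translation per message.

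Of the 9 genes, 5 changed: Tfrc, Fth1 and Ireb2 were lower in si3m, and Slc40a1 and Fbxl5 were higher. This is 55.6% of the 9. Over all 12672 genes tested, 27.8% passed the same threshold of an edgeR adjusted p under 0.05, 14.0% higher and 13.9% lower. Both si3m libraries lay on one side of both siNT libraries for 8 of the 9 genes, against 63.9% of all genes tested. The median log2 fold change was -0.02 over the 9 genes and 0.02 over all genes, and the median size of the change was 0.47 against 0.36. The 9 genes did not share a direction. Over all genes, 1771 were higher and 1757 lower, a split that total count scaling moved to 1428 and 2217, and every change is relative to the other footprints.

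**Figure D1:**
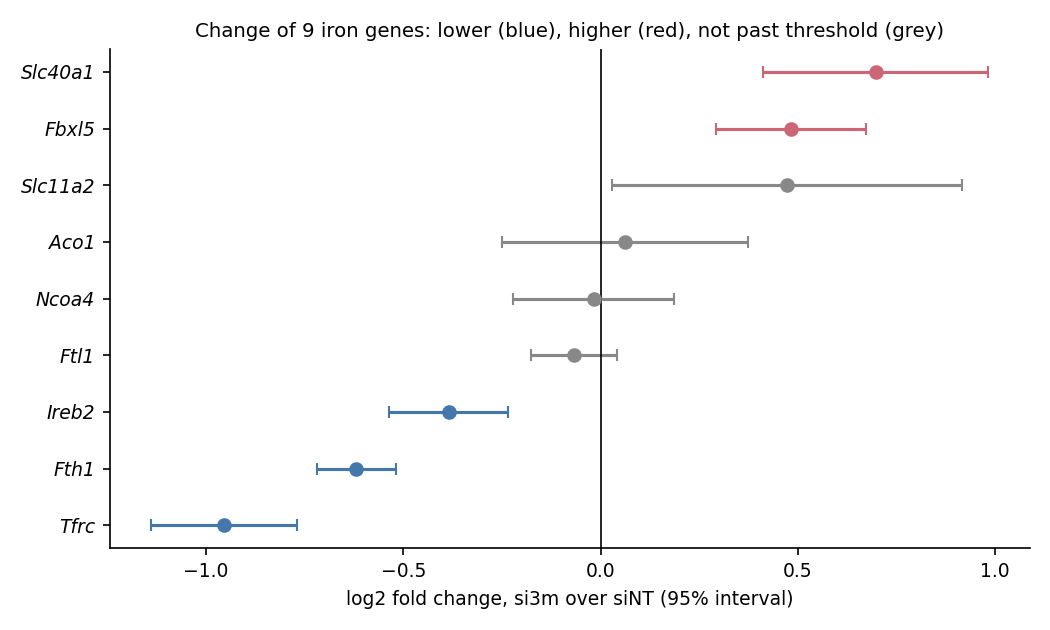
Log2 fold change of si3m over siNT for the 9 iron genes with 95% intervals from edgeR, not adjusted for the number of genes. Tfrc (-0.95), Fth1 (-0.62) and Ireb2 (-0.39) lie below 0 and Slc40a1 (0.70) and Fbxl5 (0.48) above it.

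The sequences just upstream of 4 of the 5 genes that changed are printed here because transcription from them sets the amount of message that a footprint count also depends on. They are the 250 bases before the RefSeq transcript start in the build GRCr8, read 5′ to 3′ on the gene's strand, for Tfrc at chr11:81690319-81690568 (minus strand), Slc40a1 at chr9:55543461-55543710 (minus strand), Ireb2 at chr8:64160838-64161087 (plus strand) and Fbxl5 at chr14:71521349-71521598 (plus strand). RefSeq promoter entries were matched for 7 of the 9 genes, all but Fth1 and Ftl1. Capitals mark matches on either strand to ACGTG, the core letters of hypoxia response elements, or to GGGCGG, the Sp1 box.
Tfrc: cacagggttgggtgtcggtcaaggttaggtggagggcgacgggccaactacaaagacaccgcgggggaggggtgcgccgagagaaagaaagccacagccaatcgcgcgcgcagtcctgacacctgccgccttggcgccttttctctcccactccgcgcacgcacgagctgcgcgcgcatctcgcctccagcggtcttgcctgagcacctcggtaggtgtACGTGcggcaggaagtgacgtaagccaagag
Slc40a1: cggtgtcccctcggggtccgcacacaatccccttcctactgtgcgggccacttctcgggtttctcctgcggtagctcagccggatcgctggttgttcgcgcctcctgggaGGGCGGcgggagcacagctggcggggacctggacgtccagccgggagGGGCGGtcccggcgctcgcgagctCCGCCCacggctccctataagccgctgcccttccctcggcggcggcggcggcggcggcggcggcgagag
Ireb2: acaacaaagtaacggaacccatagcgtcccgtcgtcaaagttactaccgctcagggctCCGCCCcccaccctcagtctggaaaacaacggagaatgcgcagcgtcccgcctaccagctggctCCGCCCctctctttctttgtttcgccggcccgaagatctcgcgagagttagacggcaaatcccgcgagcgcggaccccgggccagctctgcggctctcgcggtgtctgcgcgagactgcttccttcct
Fbxl5: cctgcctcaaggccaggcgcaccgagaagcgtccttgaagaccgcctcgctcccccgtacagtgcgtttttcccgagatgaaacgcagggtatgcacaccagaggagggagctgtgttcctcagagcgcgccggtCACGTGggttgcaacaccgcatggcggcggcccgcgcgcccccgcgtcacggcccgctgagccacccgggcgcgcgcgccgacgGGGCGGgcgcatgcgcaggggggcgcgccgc
Tfrc had 1 ACGTG match beginning 31 bases before the start and no GGGCGG. Fbxl5 had the palindrome CACGTG, in which ACGTG matches overlap on both strands at 115 and 114 bases before the start, and a GGGCGG at 31. Slc40a1 had GGGCGG or its complement at 140, 93 and 69 bases before the start, Ireb2 at 192 and 128, and neither had ACGTG. Of 33469 promoter windows of this length, 16.6% held ACGTG and 30.5% held GGGCGG. The letters TGACNNNGC of the antioxidant response element, present in 10.1% of windows, were found upstream of Ncoa4 alone among the 7 genes. The letters CAGTGN of the IRE loop, searched on the gene's strand, were in the first 50 transcribed bases of 7.26% of entries and of none of these 7. Such matches are descriptions of letters and not binding sites, and an absent match speaks only of this window.

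Fth1 encodes the ferritin heavy chain, the subunit that oxidises ferrous iron as it enters the ferritin shell. It had 987 and 1025 CPM in siNT and 635 and 675 CPM in si3m. The si3m libraries were both well below the siNT libraries, and each pair of replicates lay close together. Fth1 fell 1.54-fold, from 1006 ± 27.2 to 655 ± 28.0 CPM (SD, n = 2 each), a log2 change of -0.62 (SE 0.047, edgeR adjusted p = 9.04e-08). It passed under each of 16 alternative settings, with log2 values from -0.70 to -0.51. Of all genes tested, 11.6% had a lower log2 fold change.

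Ftl1 encodes the ferritin light chain, which helps the iron core form inside the shell. It had 519 and 518 CPM in siNT and 489.9 and 499 CPM in si3m. These groups did not overlap, but they lay within a few percent of each other. The log2 fold change of -0.07 (SE 0.051, 95% interval -0.18 to 0.04) did not pass (edgeR adjusted p = 0.353), and an interval of this width leaves out a fall as large as that of Fth1. With total count scaling Ftl1 just passed (log2 -0.15, adjusted p = 0.0447).

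Deposited counts of the heavy chain were 1.90 and 1.98 times those of the light chain in the siNT libraries and 1.30 and 1.35 times in the si3m libraries. The ratio was thus lower in both si3m libraries, by 1.47-fold between the group means of 1.94 ± 0.0563 and 1.32 ± 0.0388 (SD, n = 2 each). Such ratios do not depend on how libraries are scaled, and since counts were not divided by gene length, only their change between libraries is read. They rest on the same counts as the fold changes, and no separate test was made of them.

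**Figure D2:**
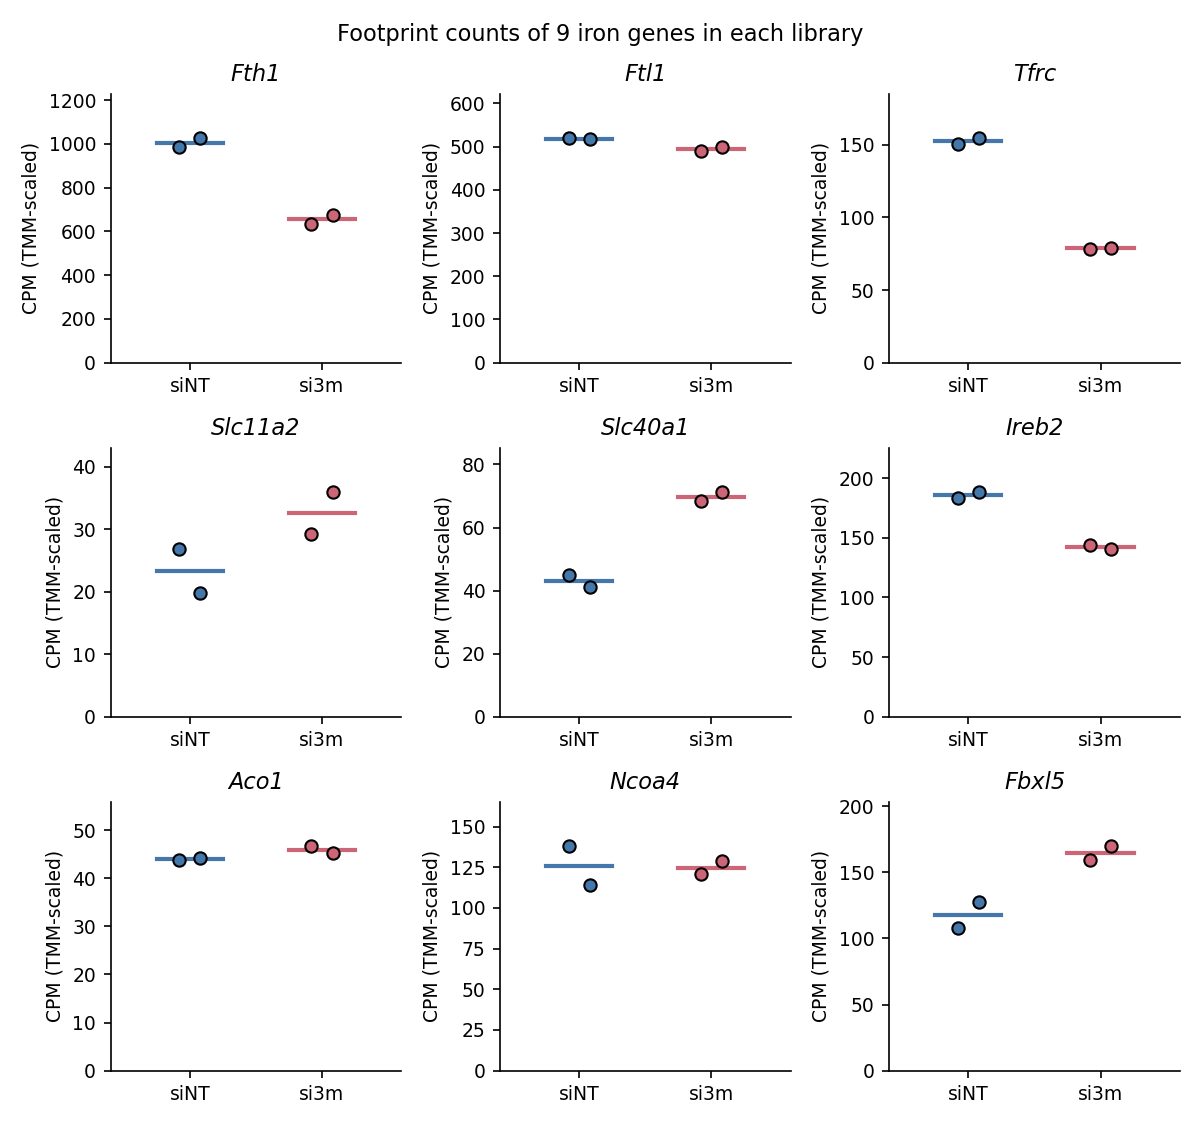
Footprint abundance of each of the 9 iron genes in CPM (TMM-scaled) by group, with a point for each library and a line at the mean of the 2. The si3m points lie below the siNT points for Fth1, Tfrc and Ireb2, above them for Slc40a1 and Fbxl5, and only Ncoa4 has groups that overlap.

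The rat genome holds many ferritin copies, and reads that match several of them could be split between rows, so both ferritin values are uncertain. Among RefSeq genes, 6 genes or pseudogenes were copies of Fth1 and 22 were copies of Ftl1, of which 1 and 3 had a row that could be matched. Fth1-ps5, a pseudogene, had 202 and 200.2 CPM in siNT and 191 and 196 in si3m. Its log2 value of -0.06 (95% interval -0.19 to 0.08, edgeR adjusted p = 0.555) did not pass, and its difference from that of Fth1 was not tested. Rows matched to Fth1 and its copy placed 17.0% and 16.3% of their counts in the copy in siNT, and 23.1% and 22.5% in si3m.

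Copies of the light chain were counted as well. LOC100360087 had 218 and 198 CPM in siNT and 220.2 and 230.2 in si3m, and Ftl1l2 had 157 and 163 in siNT and 169 and 176 in si3m. Neither passed (log2 0.11 and 0.11, edgeR adjusted p = 0.229 and 0.289). The pseudogene Ftl1-ps14 had 129.9 and 127 CPM in siNT and 159 and 152 in si3m, and it passed as higher (log2 0.28, SE 0.078, edgeR adjusted p = 0.0143), in 13 of 15 alternatives as well. With copies summed into their parent rows before the fit, Fth1 still fell 1.42-fold (log2 -0.51, SE 0.043, adjusted p = 2.97e-07). Ftl1 then stood at log2 0.05 (SE 0.041, adjusted p = 0.431), with the sign of its small difference turned. The heavy to light ratio of the summed rows was 1.16 and 1.22 in siNT and 0.796 and 0.824 in si3m.

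**Figure D3:**
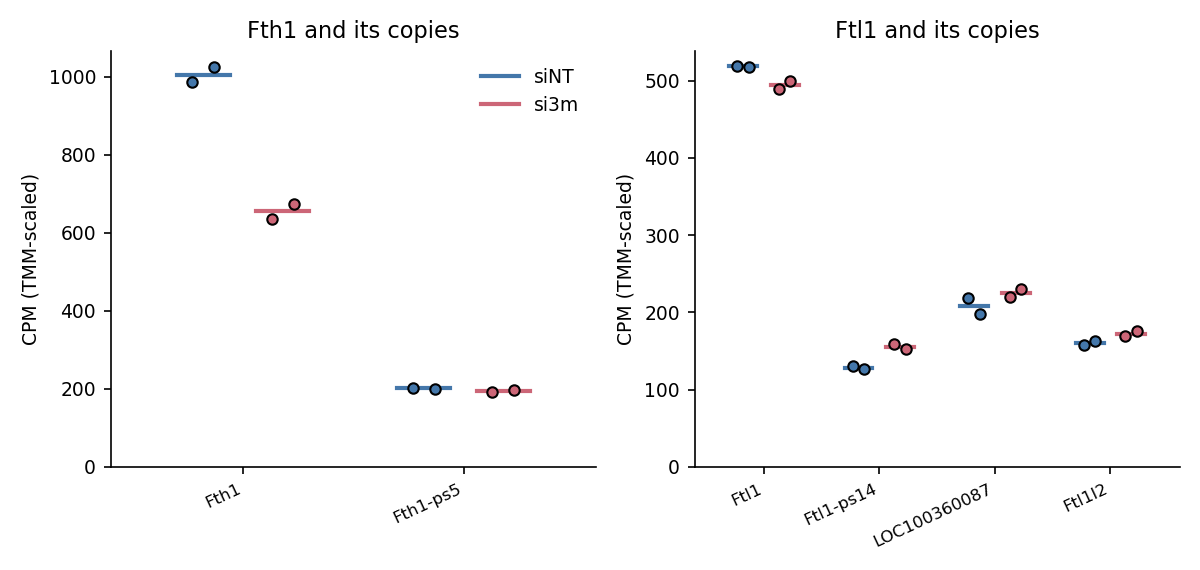
Footprint abundance in CPM (TMM-scaled) of Fth1 and Ftl1 and of the copies with a row of their own, with points for single libraries and lines for the means of siNT (blue) and si3m (red). Fth1 went from a mean of 1006 to 655 CPM, and Fth1-ps5 stood at 201 and 193 CPM.

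Ncoa4 encodes the cargo receptor that carries ferritin to the lysosome, where its iron is released. It had 138 and 114 CPM in siNT and 121 and 129 CPM in si3m, so the groups overlapped. The log2 fold change was -0.02 (SE 0.096, 95% interval -0.22 to 0.19, edgeR adjusted p = 0.917). Its siNT replicates differed by more than the group means did, and leaving out siNT replicate 1 or siNT replicate 2 gave log2 values of 0.13 and -0.14, neither past the threshold.

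Tfrc, the transferrin receptor that brings transferrin-bound iron into the cell, had the largest change of the 9. It had 151 and 154 CPM in siNT and 78.4 and 79.2 CPM in si3m. Both si3m libraries were nearly equal and far below the siNT pair. Tfrc fell 1.94-fold, from 153 ± 2.57 to 78.8 ± 0.545 CPM (SD, n = 2 each), or by 0.95 on the log2 scale (SE 0.087, edgeR adjusted p = 6.65e-07). All 16 alternatives passed, with log2 values from -1.03 to -0.90, and 4.88% of all genes tested had a lower value. All 9 matched erythroid genes, which would mark red cell precursors rich in this receptor, had at most 6 counts in every library. Whether such cells had a part in the Tfrc change was not tested.

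Slc11a2, also called DMT1, moves ferrous iron out of the endosome after uptake, and 1 of its message forms carries a 3′ IRE. It was the member with the fewest counts, 108 and 78 in siNT and 248 and 232 in si3m, or 26.9 and 19.8 CPM against 29.2 and 35.9 CPM. The si3m values were both higher, but the replicates of each group differed by about as much as the groups did. The log2 fold change of 0.47 (SE 0.21, 95% interval 0.03 to 0.92) had an unadjusted p of 0.0381 and did not pass after adjustment (edgeR adjusted p = 0.106). The value hung on single libraries. Without siNT replicate 1 it was 0.71 and passed (adjusted p = 0.0142), and without siNT replicate 2 it was 0.27.

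Slc40a1 encodes ferroportin, the only known exporter of iron from mammalian cells. It had 44.8 and 41.2 CPM in siNT and 68.3 and 71.2 CPM in si3m. The si3m libraries were both higher, by far more than the replicates differed. Slc40a1 rose 1.62-fold, from 43.0 ± 2.58 to 69.7 ± 2.02 CPM (SD, n = 2 each), a log2 change of 0.70 (SE 0.13, edgeR adjusted p = 0.00103) that passed in all 16 alternatives (log2 0.61 to 0.76). In the GRCr8 annotation Slc40a1 overlaps Asnsd1, which has a row of its own. Without the strand setting of the counting, reads in the shared part cannot be assigned with certainty. Asnsd1 had 73.7 and 82.8 CPM in siNT and 99.4 and 104 in si3m (log2 0.38, SE 0.11, edgeR adjusted p = 0.0140), and passed as higher too, and its part in the result was not tested. Slc11a2, Ncoa4 and Fbxl5 each overlap a GRCr8 gene for which no row was matched. Macrophages are rich in ferroportin. Of their markers, 7 to 9 of 10 per library were at 6 counts or fewer, and Aif1 was at 0 throughout. The sum of the 10 was lower in si3m, at 15.4 and 16.6 CPM of the total, than in siNT, at 32.1 and 36.5. Any part of macrophages in the Slc40a1 counts was not tested.

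Counts of Tfrc were 3.37 and 3.75 times those of Slc40a1 in siNT and 1.15 and 1.11 times in si3m. The importer and the exporter thus moved in opposite directions, and the mean ratio was 3.15-fold lower in si3m. Genes were grouped by reported IRE position, which was not checked in the full rat messages, and counts pool all message forms of a gene. The 5′ IRE genes did not move together: Fth1 was lower, Slc40a1 higher, and Ftl1 did not pass. Among genes listed with a 3′ IRE, Tfrc and the kinase gene Cdc42bpa (log2 -0.47) were lower. In that group Slc11a2 (log2 0.47) and the phosphatase gene Cdc14a (log2 -0.47) did not pass. Cdc14a hung on single libraries too, at -0.75 and past the threshold (edgeR adjusted p = 9.39e-04) without siNT replicate 1 and at -0.09 without siNT replicate 2.

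**Figure D4:**
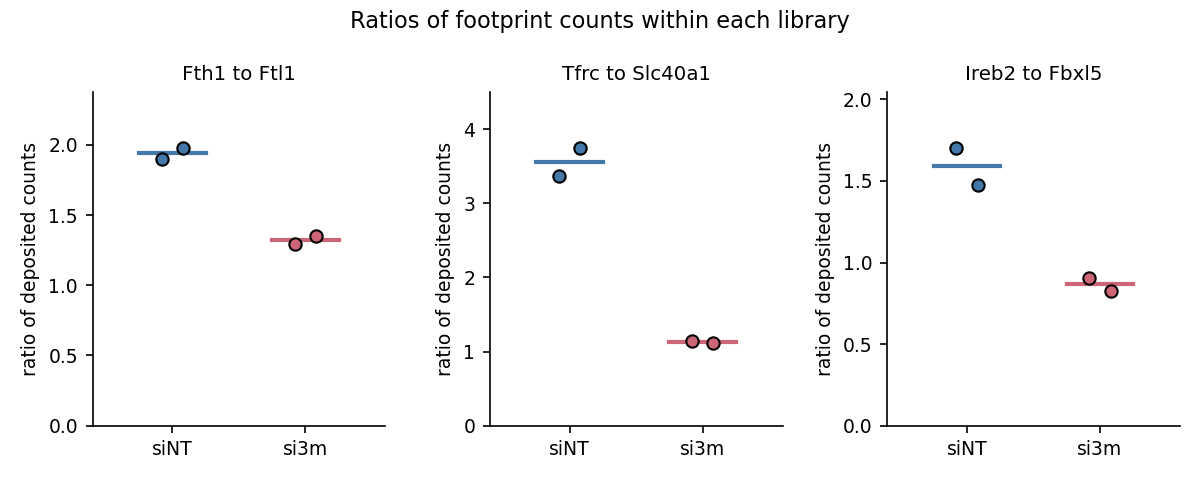
Ratios of deposited counts within each library, with lines at the group means. Fth1 to Ftl1 went from a mean of 1.94 in siNT to 1.32 in si3m, Tfrc to Slc40a1 from 3.56 to 1.13, and Ireb2 to Fbxl5 from 1.59 to 0.867.

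Ireb2 encodes IRP2, the iron regulatory protein whose amount is set by degradation when iron is plentiful. It had 184 and 188 CPM in siNT and 144 and 140.5 CPM in si3m. The si3m pair was lower, with little difference within either pair. Ireb2 fell 1.31-fold, from 186 ± 3.05 to 142 ± 2.44 CPM (SD, n = 2 each), a log2 change of -0.39 (SE 0.071, edgeR adjusted p = 7.54e-04) that passed in all 16 alternatives (log2 -0.47 to -0.36).

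Aco1 encodes IRP1, which carries an iron-sulfur cluster and acts as cytosolic aconitase when iron is sufficient. It had 43.8 and 44.2 CPM in siNT and 46.6 and 45.2 CPM in si3m. The groups differed by less than the precision of the fit, with a log2 fold change of 0.06 (SE 0.15, 95% interval -0.25 to 0.37, edgeR adjusted p = 0.796). Counts of Ireb2 were 4.19 and 4.25 times those of Aco1 in siNT and 3.09 and 3.11 times in si3m.

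Fbxl5 encodes the iron-sensing subunit of the ubiquitin ligase that marks IRP2 for degradation. It had 108 and 127 CPM in siNT and 159 and 169.5 CPM in si3m. All si3m values were above all siNT values. Fbxl5 rose 1.40-fold, from 118 ± 13.8 to 164 ± 7.47 CPM (SD, n = 2 each), a log2 change of 0.48 (SE 0.089, edgeR adjusted p = 7.68e-04) that passed in all 16 alternatives (log2 0.37 to 0.61). Without siNT replicate 1, the lower control, the log2 value was 0.37. Ireb2 had 1.70 and 1.48 times the counts of Fbxl5 in siNT, but 0.905 and 0.828 times in si3m. The ligase's shared partners Skp1, Cul1 and Rbx1 did not pass (log2 -0.01, -0.03 and -0.30).

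Of 1853 well-counted genes, those whose profile over the 4 libraries lay nearest to that of Fth1 were Cct8, Asxl2 and Syde2, with log2 fold changes of -0.60, -0.66 and -0.61. The distances were 0.0168, 0.0376 and 0.0392 on the log2 CPM scale, each profile being centred on its own mean. Nearest to Tfrc were Chka, Lrrk2 and Arf3, at 0.0228, 0.0459 and 0.0503, with log2 fold changes of -0.94, -0.97 and -0.94. With 4 libraries in 2 groups, such a distance mostly measures the size of the group difference.

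Beyond the 9 genes, 76 of 77 further genes of iron, heme and iron-sulfur metabolism had a row and 61 had enough counts to be tested. Of these, 3 were higher and 11 lower, 23.0% against the 27.8% of all genes, with a median log2 fold change of 0.09. Lcn2, among the lower genes, passed the filter on low counts through the siNT libraries alone, and without it 10 were lower and 21.7% called. A share this near the background is no result about iron genes as a class. The calls by role are as follows.

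Among 9 tested genes that load ferritin or turn over IRP2 or Tfrc message, 3 fell and 1 rose (median log2 -0.03). This is 44.4% called, against 27.8% of all genes tested. Rc3h1 (Roquin-1), an RNA-binding protein that promotes decay of messages with stem-loops, had 290.2 and 312 CPM in siNT and 145 and 144 in si3m. It fell 2.08-fold (log2 -1.06, SE 0.064, edgeR adjusted p = 5.48e-09). Herc2, a ubiquitin ligase that acts on NCOA4, fell 1.32-fold (log2 -0.40, SE 0.080). The iron chaperones of ferritin split, with Pcbp1 falling 1.27-fold (log2 -0.35, SE 0.080) and Pcbp2 rising 1.20-fold (log2 0.26, SE 0.064). Pcbp2 did not pass with total count scaling (adjusted p = 0.0514) or without siNT replicate 2 (adjusted p = 0.0544).

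Genes of uptake and endosomal release had 10 of 17 members tested, of which Lrp1 and Lcn2 passed as lower and none as higher (median log2 -0.13). Among all genes tested, 27.8% passed, 14.0% as higher and 13.9% as lower. The 2 calls among 10 genes are not above that 27.8%, and they are no result about uptake genes as a class. Lrp1, an endocytic receptor that takes up heme bound to hemopexin, fell 1.28-fold (log2 -0.36, SE 0.036, edgeR adjusted p = 2.09e-06). Lcn2, a siderophore-binding protein, was near the limit of detection and was tested only because of its siNT counts, with 22 and 12 counts in siNT replicates 1 and 2 and with 2 and 0 in the si3m pair. Counted as fragments (2 deposited counts each), 17 against 1 gave a 32.0-fold lower level in si3m with an exact 95% interval of 5.01 to 1336 that covers counting error only. Steap2, a metalloreductase, and Scara5, a receptor for ferritin, stood at log2 values of -0.30 and 0.55, neither past the threshold. Steap3, the ferrireductase that works beside Tfrc and Slc11a2 in the endosome, had a log2 value of 0.01 (SE 0.24).

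Genes of export and of the hepcidin axis had 4 of 8 members tested, and 2 fell. Among all genes tested, 27.8% passed, 13.9% as lower, and 4 genes are too few to compare with these shares. Cp (ceruloplasmin), the ferroxidase that works with ferroportin, had 87.6 and 70.6 CPM in siNT and 47.6 and 51.0 in si3m. It fell 1.61-fold (log2 -0.68, SE 0.14, edgeR adjusted p = 0.00134), while Slc40a1 rose. Its membrane-bound relative Heph, at a log2 value of -0.01 (SE 0.13), did not pass. Neo1, a co-receptor with hemojuvelin, fell 1.46-fold (log2 -0.55, SE 0.061), and the heme exporter Flvcr1 (log2 0.69, SE 0.58) did not pass. Hepcidin itself (Hamp) had at most 2 counts in any library.

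All 16 heme genes were tested, with 2 higher, 2 lower and a median log2 of 0.14. The share called was close to the 27.8% of all genes tested, so it is no result about heme genes as a class. Hmox1, which breaks heme down and frees its iron, had 198 and 193 CPM in siNT and 116 and 125 in si3m. It fell 1.62-fold (log2 -0.70, SE 0.076, edgeR adjusted p = 4.47e-06). Blvrb, which reduces biliverdin further down that path, rose 1.25-fold (log2 0.33, SE 0.078). Cpox and Ppox, successive enzymes of heme synthesis, went opposite ways, Cpox falling 1.72-fold (log2 -0.78, SE 0.14) and Ppox rising 1.65-fold (log2 0.72, SE 0.22), a call that Ppox lost with si3m replicate 2 left out (adjusted p = 0.194).

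Of the iron-sulfur and mitochondrial iron genes reported here, 20 were tested and 1 was lower, with a median log2 of 0.24. This is 5.00% called against 27.8% of all genes tested. Several of the 20 had few counts, with standard errors up to 0.43, so changes of modest size could be missed. The scaffold protein gene Iscu had 22.9 and 24.4 CPM in siNT and 33.7 and 30.9 in si3m, higher in both si3m libraries, but did not pass (log2 0.45, SE 0.19, edgeR adjusted p = 0.0868). Ciapin1, a factor of cytosolic cluster assembly (log2 0.47, SE 0.20), and Cisd1, a mitochondrial outer membrane protein with such a cluster (log2 0.36, SE 0.15), did not pass either. Cisd2, an iron-sulfur protein of the endoplasmic reticulum and mitochondria, fell 1.34-fold (log2 -0.42, SE 0.15, edgeR adjusted p = 0.0414), a call lost without siNT replicate 2 (0.289), without si3m replicate 1 (0.219) and without si3m replicate 2 (0.0837).

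**Figure D5:**
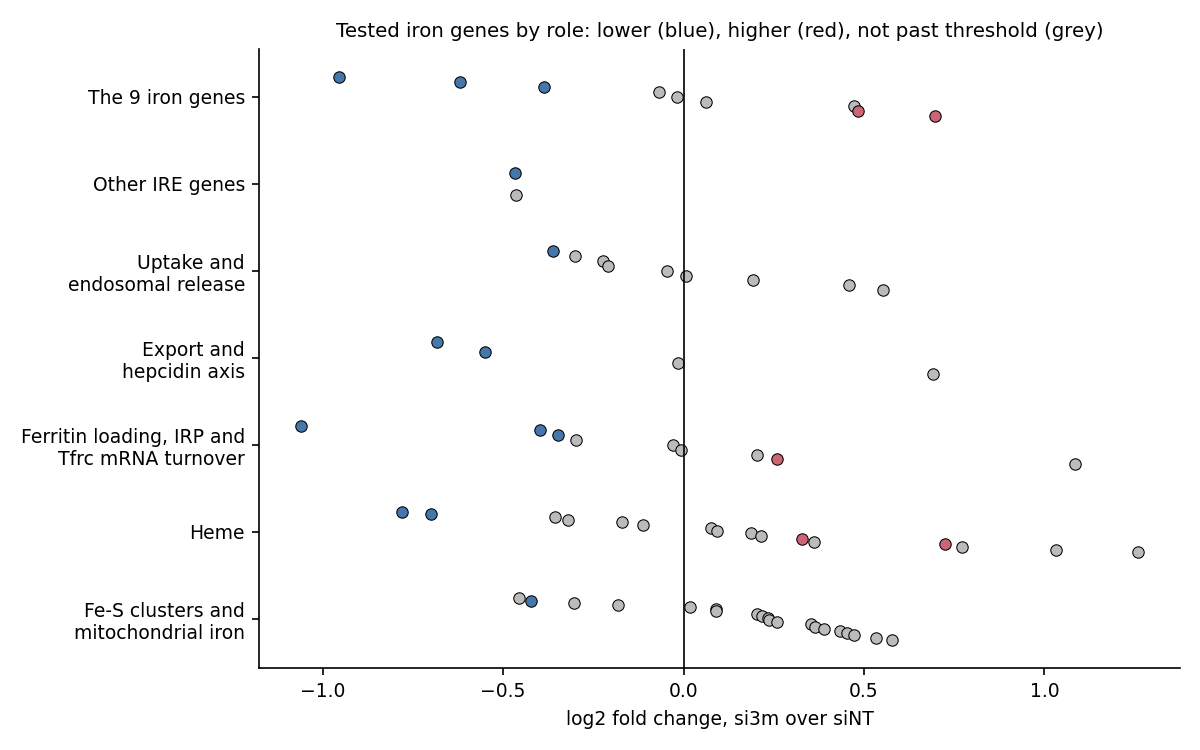
Log2 fold change of si3m over siNT for each tested iron gene reported here, by role, leaving out Lcn2 for its few counts. Blue and red points passed as lower and higher, and the largest among them are Rc3h1 (-1.06) and Tfrc (-0.95) on the lower side and Ppox (0.72) on the higher.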

How the data were processed

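Ribosome footprints were counted per gene symbol in 4 libraries, 2 siNT and 2 si3m. The deposited values are whole-number counts with no normalization, and the build is rn6, per the submitters' processing notes, which list featureCounts, HISAT2 2.2.1, DESeq2, Trimmomatic 0.40 and limma without their roles. How the genes were annotated, whether strand was used and how reads matching several places were counted is not given in the sources used here. Even numbers made up 94.9% to 97.3% of a library's nonzero counts, so 2 counts were taken as 1 fragment where counting error is given. Replicates varied 1.40 (siNT) and 1.48 (si3m) times as much as counting noise (median chi-square, rows of 20 or more fragments in the pair), and all 4 libraries were kept.

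Counts were tested with edgeR 4.0.16 in R 4.3.3 by its two-sided quasi-likelihood test (glmQLFit, glmQLFTest) after filterByExpr (minimum count 10) and TMM scaling. P-values were adjusted by Benjamini-Hochberg over all 12672 genes tested, with a threshold of 0.05. Standard errors are the log2 fold change divided by the root of the F statistic. On simulated counts for this comparison (12416 genes), the test called 26.2% of 65 genes given a 1.5-fold change, 76.2% of 63 given a 2-fold change and 98.4% of 64 given a 4-fold change. Few genes were given a change there, and all shared a single dispersion, whereas 27.8% of genes passed in the data. These shares therefore do not measure the power of the real comparison. Alternatives were other scalings and filters, DESeq2 1.42.0, robust quasi-likelihood, fragments, counts thinned to 3835750 per library, no microRNA rows, a replicate block, each library left out, and ferritin copies summed. Synonyms and ferritin copies were matched through a RefSeq table of GRCr8, which is not the build of the files. The text names the 9 genes, Eif3m, up to 4 genes with the smallest p from each list, ferritin copies, and the 3 nearest profiles to Fth1 and Tfrc among genes with at least 100 CPM (prior count 2). Named outside this rule, after their values were seen, are Asnsd1 for its overlap, Steap3, Skp1, Cul1, Rbx1 and Hamp. The same holds for the markers Tnni3, Myl7, Nppa, Tnnt2, Ttn, Pln, Tnnc1, Dcn and Aif1. It also holds for the markers Pdgfra, Tcf21, Lum, Dpt, Acta2, Tagln, Cd14 and Adgre1. The members and lists were chosen with earlier results of these data known. Some genes are not reported here and were left out of the lists, their counts and the nearest profiles. The sum of each marker list is a share of the library total.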

Additional observations from a re-analysis of the deposited data

How the results depend on the processing

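The 5 calls among the 9 iron genes held in each of 16 alternatives, and the number called was 5 or 6 (5 to 6 with single libraries left out). Eif3m kept its log2 value of -1.59 but did not pass with robust quasi-likelihood (adjusted p = 0.0522). Among the genes chosen by the naming rule, signs turned for these, none of which passed: Ftl1 with copies summed (0.047), Aco1 with total count scaling (-0.019), Ncoa4 with no low-count filter (0.0048) and over single libraries left out (-0.14 to 0.13), and Heph with upper quartile scaling (0.0033), no low-count filter (0.0080) and over single libraries left out (-0.13 to 0.12). Of the genes named outside it, Steap3 (-0.20 to 0.26), Skp1 (-0.09 to 0.04) and Cul1 (-0.16 to 0.12) changed sign over the alternatives. Cdc14a passed without siNT replicate 1 (log2 -0.75, adjusted p = 9.39e-04) and Cisd1 without siNT replicate 2 (0.44, 0.0470). Other iron genes called numbered 13 to 18 against 14, and 13 without Lcn2, an alternative chosen after seeing the data. With single libraries left out, genes called over the whole table ranged from 2537 to 3739. Where that left 1 library in a group, it was assumed to vary like the other group.

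Replicate numbers did not show as pairs (correlation of same-numbered deviations -0.0228 over 12672 genes, with only 2 pairs). With the replicate block 3694 genes were called against 3528, again 5 of the 9 iron genes, and 15 other iron genes. Slc11a2, the member with the fewest counts, had log2 values of 0.27 to 0.71 with single libraries left out and 0.45 with counts thinned to equal depth.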
